A study of Homo sapiens with 16 samples.

Results

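The bile acid axis was followed through 7 genes: CYP7A1 and CYP27A1, enzymes that begin bile acid synthesis; NR1H4, which encodes the bile acid receptor FXR; NR0B2, which encodes the repressor SHP; the hormone gene FGF19 and its receptor gene FGFR4; and ABCB4, the phospholipid carrier of the bile canaliculus. The genes were chosen by symbol from a deposited table of 16558 genes, of which 6 of the 7 have a row; CYP7A1 is not analysed here. RNA was sequenced from 8 clones of HepG2, a line from a human liver tumour that still makes many hepatocyte products. The clones had been prime edited at the PNPLA3-I148M site, which lies in a lipid droplet protein whose variant is associated with fatty liver disease. There were 3 clones with genotype G/G (GG, the form that encodes I148M on both alleles), 3 with G/C (GC) and 2 with C/C (CC). Each clone gave 1 library from cells given 250 µM palmitic acid, the common saturated fatty acid with which fat loading of liver cells is modelled, and 1 library from untreated control cells. The protocol gives 48 h of treatment, while the labels of single treated libraries count up from 48 to 55 h in the order GG, GC, CC, so that genotype and these hours cannot be told apart if the labels are read as written. The sources used here do not give the vehicle of the untreated cells or the genotype of the line before editing. Every clone is of the same parental line and stands for itself alone, so n counts clones. The palmitic acid p-values, paired by clone, measure the spread of the changes between clones. The genotype p-values measure the spread of changes or of levels between clones.

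Hepatocytes make bile acids from cholesterol by a classic pathway, opened by CYP7A1, and an alternative pathway, opened in mitochondria by CYP27A1. Bile acids bind FXR, which pairs with RXR on DNA and switches on NR0B2 and export carriers, and SHP then holds back the synthesis enzymes. In the intestine FXR also switches on FGF19, which travels in portal blood to the liver and acts on FGFR4 together with the co-receptor beta-klotho (KLB) to lower bile acid synthesis.

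Levels are given in the deposited per-million units, in which each library's reads were scaled to a common total with TMM factors that even out composition. The 16 libraries held 9314342 to 15777669 reads. Per kilobase of exons, which allows levels of different genes to be compared, the untreated cells held most CYP27A1 and FGFR4 transcript, with medians over the 8 clones of 62.7 and 62.7 units per kilobase. NR1H4 followed with a median of 20.01 units per kilobase and NR0B2 with 12.2 units per kilobase. The ABCB4 median was 3.24 units per kilobase and the FGF19 median 0.0314 units per kilobase. The ranges over the untreated clones overlapped between CYP27A1 and FGFR4, and between NR1H4 and NR0B2 (8.04 to 22.6 units per kilobase for NR1H4 and 9.74 to 37.2 for NR0B2). The ABCB4 range, 2.52 to 3.72 units per kilobase, lay below those of the 4 genes above it.

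Palmitic acid moved 3 of the 5 genes that could be tested, in opposite directions along the axis: NR0B2 rose, and NR1H4 and ABCB4 fell. CYP27A1 and FGFR4 did not pass the test, and FGF19 was below the filter of a mean of 1 unit. The test was limma on log2(value + 0.5) with the clone as a block, two-sided, with Benjamini-Hochberg adjustment over all 13095 tested genes and a call at 0.05. Over all tested genes, 10.7% rose and 10.2% fell by the same rule. Each of the 3 called genes also moved the same way in 8 of 8 clones, which held, called or not, for 6.77% of tested genes upward and 6.79% downward. When the clones were not used as a block, the same differences gave limma adjusted p = 0.443 for NR0B2, 0.669 for NR1H4 and 0.358 for ABCB4. None of the members was called then, nor any other gene named here except MUC5AC, and 3 genes passed in all (1051 at an unadjusted p under 0.05). With the block, over 18 alternative settings, the highest adjusted p was 0.00219 for NR0B2, 0.0122 for NR1H4 and 0.0295 for ABCB4.

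**Figure D1:**
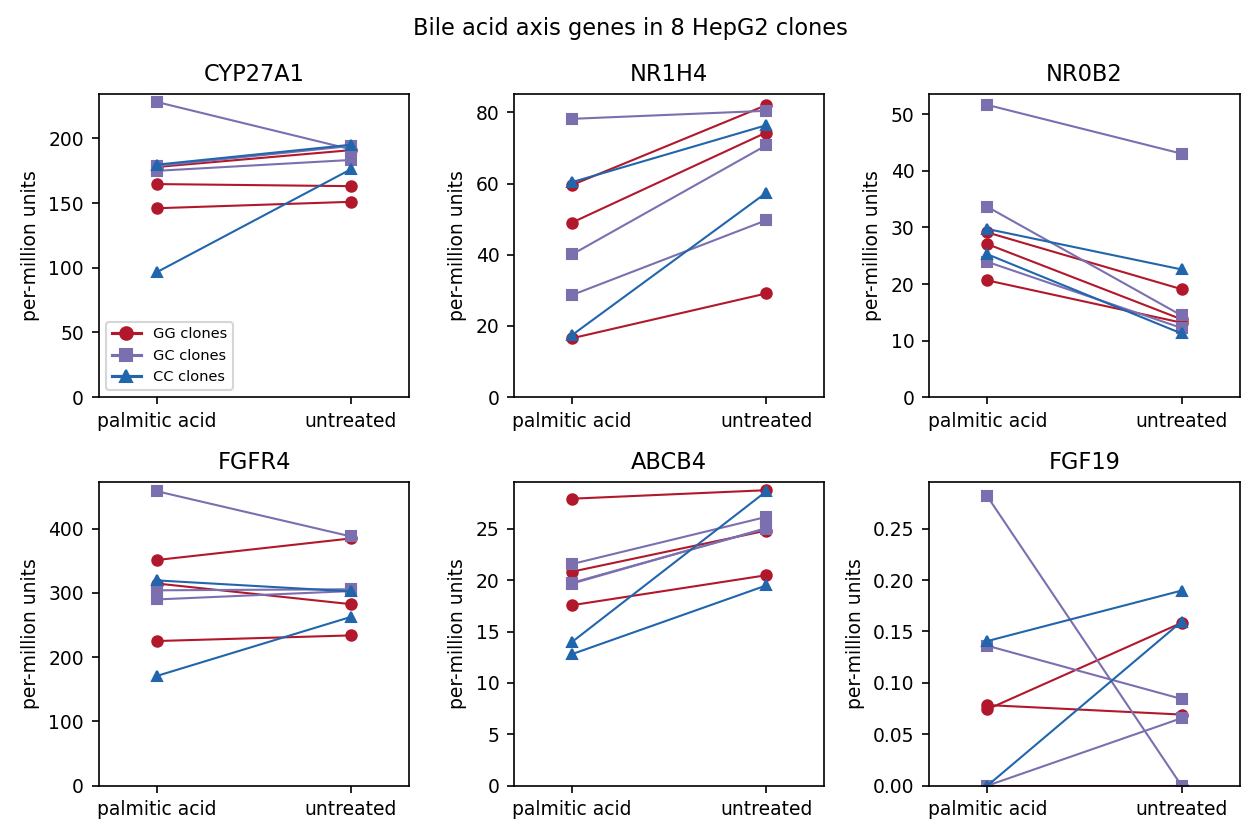
Level of 6 bile acid axis genes in per-million units (vertical axes, each starting at 0) in 8 HepG2 clones with palmitic acid (left) and untreated (right), where each line joins the 2 libraries of a clone. The NR1H4 and ABCB4 lines are lower at palmitic acid in 8 of 8 clones and the NR0B2 lines higher in 8 of 8, while FGF19 stays under 0.3 units.

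NR1H4 (ENSG00000012504.14, chromosome 12, 100473708 to 100564413, plus strand, GRCh38) is the receptor gene at the centre of the axis. In GG clones 1, 2 and 6 it had 49.1, 16.6 and 59.6 units with palmitic acid, against 74.4, 29.1 and 82.1 units untreated. In GC clones 2, 3 and 4 it had 28.7, 40.1 and 78.2 units with palmitic acid, against 49.7, 70.8 and 80.5 units untreated. In CC clones 1 and 3 it had 60.4 and 17.5 units with palmitic acid, against 76.4 and 57.4 units untreated. The treated library was the lower in every clone, but the groups overlapped, since clones differed by more than the treatment moved them. The mean change was -0.69 ± 0.13 on the log2 scale (limma SE, n = 8 clones), with a limma adjusted p = 0.00338. Limma draws the variance of each gene toward that of genes of like level, so this SE is not that of the 8 changes alone. The SD of the 8 changes was 0.48. Values after ± for a change over all clones are this limma SE throughout. The change was smallest in GC clone 4, at -0.04, and largest in CC clone 3, at -1.69. Of the sum of squares of NR1H4 over the 16 libraries, 65.2% lay between clones of the same genotype, 22.4% with palmitic acid and 2.64% between genotypes. In whole-culture RNA, fewer cells that express a gene and less of its RNA in each cell cannot be told apart.

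The promoter of NR1H4 is shown because its transcript fell in all 8 clones, beside that of CYP27A1, whose level did not pass the test. Both are the 300 bases around a RefSeq transcript start on GRCh38.p14, 250 before it and 50 after, plus strand; NR1H4 is chr12:100503110-100503409 and CYP27A1 is chr2:218781897-218782196. The NR1H4 start lies inside the gene's span in GENCODE, and whether HepG2 uses it was not measured.
NR1H4: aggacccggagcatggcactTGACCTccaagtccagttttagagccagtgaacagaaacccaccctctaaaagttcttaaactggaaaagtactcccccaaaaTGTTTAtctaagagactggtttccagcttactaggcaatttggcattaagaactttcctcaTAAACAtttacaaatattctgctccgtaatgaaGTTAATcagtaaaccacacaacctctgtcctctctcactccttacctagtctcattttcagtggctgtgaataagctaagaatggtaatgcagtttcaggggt
CYP27A1: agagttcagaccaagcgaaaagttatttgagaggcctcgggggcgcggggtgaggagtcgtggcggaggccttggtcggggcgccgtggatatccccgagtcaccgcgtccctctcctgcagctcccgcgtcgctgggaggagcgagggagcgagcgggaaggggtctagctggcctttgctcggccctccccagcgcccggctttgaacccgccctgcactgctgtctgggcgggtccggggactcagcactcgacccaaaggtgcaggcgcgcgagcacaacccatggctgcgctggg
Capitals mark letters that match 3 short motifs searched on both strands: GTTAAT, an element of the liver factor HNF1; TGTTTA, the core bound by forkhead factors such as FOXA2; and AGGTCA, the element of many nuclear receptors. The NR1H4 window held GTTAAT at -53 from the start, TGTTTA at -147, TGTTTA on the opposite strand at -86 and AGGTCA on the opposite strand at -230, with no overlap between them. GTTAAT was present in 6.88% of the 35116 promoters of this length, TGTTTA in 12.3% and AGGTCA in 13.8%. The CYP27A1 window held none of the 3. G and C made up 41.7% of the NR1H4 window and 68.7% of the CYP27A1 window, against a median of 58.7% over all promoters. These are matches of letters, and binding was not measured.

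NR0B2 (ENSG00000131910.4, chromosome 1, 26911489 to 26913966, minus strand) encodes SHP, a nuclear receptor without a DNA-binding domain that FXR normally induces. In GG clones 1, 2 and 6 it had 27.1, 29.1 and 20.6 units with palmitic acid, against 13.8, 19.1 and 13.2 units untreated. In GC clones 2, 3 and 4 it had 51.7, 33.6 and 23.9 units with palmitic acid, against 43.0, 14.4 and 12.2 units untreated. In CC clones 1 and 3 it had 25.3 and 29.7 units with palmitic acid, against 11.3 and 22.6 units untreated. NR0B2 was the higher with palmitic acid in every clone, and GC clone 2 stood above all other clones in both conditions. The groups overlapped only through the untreated libraries of GC clone 2 and CC clone 3. The mean change was 0.76 ± 0.10 (log2, limma SE, n = 8 clones), a 1.69-fold rise, with a limma adjusted p = 4.15e-04. The SD of the 8 changes was 0.34. Of its sum of squares, 46.6% lay between clones of the same genotype and 37.9% with palmitic acid. NR0B2 overlaps NUDC, a gene of dynein regulation on the opposite strand. The kit was directional, but the sources used here do not give the strand setting of the counting, so reads of the 2 genes may not be separated. NUDC rose by less, with a change of 0.28 ± 0.05 and a limma adjusted p = 0.00386, higher in 8 of 8 clones.

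Per kilobase of exons, the NR0B2 and NR1H4 medians over the 8 clones were 24.3 and 12.3 units with palmitic acid, against 12.2 and 20.01 units untreated. Across the 8 untreated libraries, clones with more NR1H4 tended to have less NR0B2: Pearson's r was -0.57 (exact permutation p = 0.142) and Spearman's rho -0.83 (exact permutation p = 0.0154, adjusted p = 0.245 over 20 relations). Without GC clone 2 and GG clone 2, the farthest from the median of NR1H4, r was -0.92. Over the 8 single-clone omissions r ranged from -0.96 to -0.52. The strongest was without GG clone 2 (exact permutation p = 0.00456, unadjusted). The relation did not pass adjustment.

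**Figure D2:**
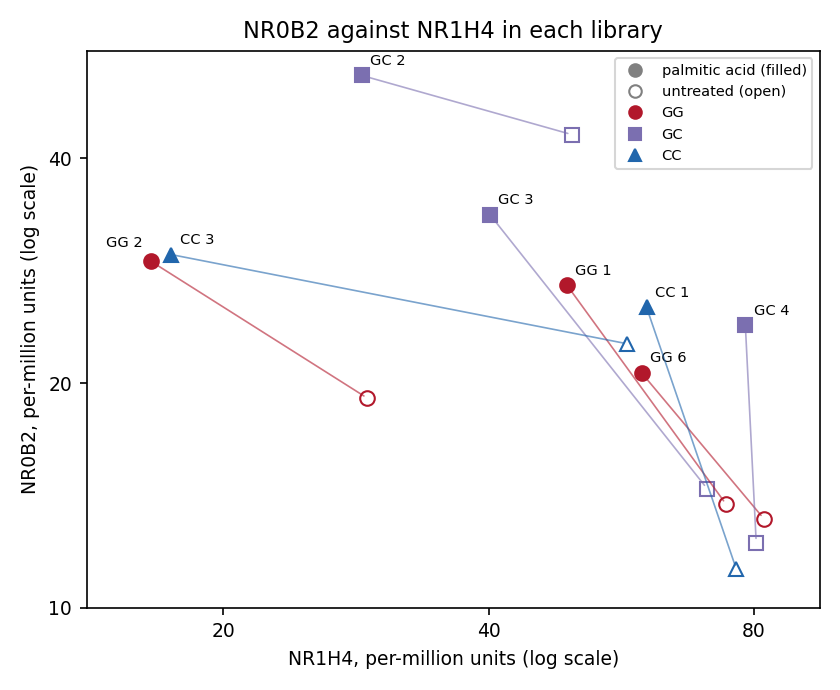
NR0B2 against NR1H4 in per-million units, both on log axes, for 8 clones with palmitic acid (filled) and untreated (open), where a line joins the 2 libraries of a clone and the label names it. Every filled point lies above and to the left of its open partner, and GC clone 2 has the highest NR0B2 in both conditions, at 51.7 and 43.0 units.

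Of 23 listed receptors and partners of the axis, 23 had a row and 21 were tested, of which 3 rose and 3 fell. These counts are near the shares over all tested genes, 10.7% up and 10.2% down, and the median change was -0.02 against -0.01 over all tested genes. Besides NR0B2, NR1I2, the xenobiotic receptor PXR, rose by 0.33 ± 0.06 (limma adjusted p = 0.00255) and MAFG, a small MAF repressor of bile acid synthesis genes in mouse liver, rose by 0.33 ± 0.08 (limma adjusted p = 0.00941). S1PR2, a membrane receptor for conjugated bile acids, had a change of -0.38 ± 0.07 (limma adjusted p = 0.00337), lower in 8 of 8 clones. HNF4A, a master factor of hepatocytes, had a change of -0.25 ± 0.08 with a limma adjusted p = 0.0399, lower in 7 of 8 clones. Its call was lost without any of GG clone 1, GG clone 6, GC clone 2, GC clone 3 or GC clone 4, with limma adjusted p between 0.0510 and 0.0909, and without CC clone 3 its change was -0.16. RXRA, the partner of FXR, had a change of -0.03 ± 0.05 (limma adjusted p = 0.690), and NR5A2, the factor LRH-1 that SHP inhibits, had -0.11 ± 0.05 (limma adjusted p = 0.133).

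Among the enzymes of bile acid synthesis, CYP27A1 did not pass the test, CYP39A1 rose and ACOX2 fell. CYP27A1 (ENSG00000135929.8, chromosome 2, 218781749 to 218815293, plus strand) had 96.7 to 228 units with palmitic acid (median 176) and 151 to 195 units untreated (median 187). The groups overlapped, and the treated library was the lower in 6 of 8 clones. Its change was -0.13 ± 0.09, with a limma adjusted p = 0.321, and it was -0.027 without CC clone 3 and -0.012 without both CC clones. A drop to 96.7 units in CC clone 3, against 176 units untreated, was the largest move, at -0.86, while GC clone 4 had 228 units with palmitic acid against 192 units untreated. Of 17 synthesis genes listed, 12 had a row and all 12 were tested, with a median change of -0.05. Of the 12, 1 rose and 1 fell, near the shares over all tested genes, 10.7% up and 10.2% down. CYP39A1, an oxysterol hydroxylase of a side branch, had 1.31 to 22.0 units with palmitic acid and 0.724 to 16.3 units untreated, with a change of 0.52 ± 0.10 (limma adjusted p = 0.00349), higher in 8 of 8 clones. ACOX2, the peroxisomal oxidase that begins shortening of the bile acid side chain, had 13.5 to 30.6 units with palmitic acid and 24.3 to 47.9 units untreated. Its change was -0.70 ± 0.11 (limma adjusted p = 0.00125), lower in 8 of 8 clones. CYP8B1, which sets the share of cholic acid, had 0.651 to 13.5 units with palmitic acid and 1.28 to 12.5 units untreated, lower in 6 of 8 clones. Its change of -0.37 ± 0.15 missed the threshold, with a limma adjusted p = 0.0925 (0.0351 to 0.223 over 17 alternatives). Without GG clone 6, 1 of the 2 clones in which it rose, CYP8B1 passed, with a change of -0.48 and a limma adjusted p = 0.0351. Of 8 listed genes that detoxify bile acids, 6 were tested, and none rose and 2 fell, SULT2A1, which sulfates bile acids, and UGT1A3. That count of 2 was 0 without GG clone 6 or GC clone 3, and 1 without GG clone 1, GC clone 2 or GC clone 4, with a pseudocount of 0.1, with a filter at 5 units or with DESeq2.

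ABCB4 (ENSG00000005471.17, chromosome 7, 87401697 to 87480435, minus strand) encodes MDR3, which moves phosphatidylcholine into bile, where it shields the duct lining from bile acids. In GG clones 1, 2 and 6 it had 17.6, 27.9 and 20.8 units with palmitic acid, against 20.5, 28.8 and 24.8 units untreated. In GC clones 2, 3 and 4 it had 19.7, 19.7 and 21.6 units with palmitic acid, against 25.07, 25.02 and 26.15 units untreated. In CC clones 1 and 3 it had 12.8 and 14.0 units with palmitic acid, against 19.5 and 28.6 units untreated. Every clone was lower with palmitic acid, and the 2 treated CC libraries were the lowest of all 16, although the groups overlapped. The mean change was -0.38 ± 0.09 (log2, limma SE, n = 8 clones), with a limma adjusted p = 0.0114. The SD of the 8 changes was 0.30. Without both CC clones the mean change was -0.24.

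Of 10 listed genes of canalicular export 8 were tested, with a median change of -0.10. Against 10.7% up and 10.2% down over all tested genes, 2 of the 8 rose and 2 fell. ABCC2, the carrier MRP2 for conjugated organic anions, was the most abundant of them and had a change of 0.29 ± 0.05 (limma adjusted p = 0.00135), higher in 8 of 8 clones. ABCB1, the drug pump MDR1 that is close in sequence to ABCB4, had a change of 0.33 ± 0.06 (limma adjusted p = 0.00182), also higher in 8 of 8 clones. The 2 genes moved in opposite directions, and the part of reads shared by ABCB1 and ABCB4 was not tested. ABCG8, a sterol export subunit, had a change of -0.32 ± 0.09 (limma adjusted p = 0.0288), which was lost without GC clone 3 (limma adjusted p = 0.0791) or CC clone 1 (limma adjusted p = 0.0633), and without both CC clones, where the change was -0.20 (limma adjusted p = 0.114). The bile salt pump ABCB11 was barely read, with 11 reads over the 8 treated libraries and 8 reads over the 8 untreated ones, and was not tested.

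Of 11 listed carriers of the basolateral side 7 had a row and 6 were tested, with a median change of -0.19. Of the 6, 2 rose and 3 fell, against 10.7% up and 10.2% down over all tested genes. Those that rose were SLC51A and ABCC3, and those that fell were SLCO2B1, SLC51B and ABCC4. SLC51A and SLC51B, the 2 subunits of the bile acid exporter OST and both FXR targets in liver, moved apart, with SLC51A higher in 8 of 8 clones and SLC51B lower in 6 of 8. SLC51A had 1.41 to 5.57 units with palmitic acid and 0.792 to 2.82 units untreated, a change of 0.48 ± 0.15 (limma adjusted p = 0.0367). SLC51B had 0.281 to 3.58 units with palmitic acid and 0.805 to 4.05 units untreated, a change of -0.62 ± 0.16 (limma adjusted p = 0.0154). Both rest on few reads. SLC51A had 14 to 61 reads a library treated and 10 to 35 untreated, and SLC51B 3 to 33 and 10 to 56. The SLC51A call was lost without any of GG clone 1, 2 or 6, GC clone 2 or 3, or CC clone 1, without both CC clones, and with DESeq2, with adjusted p between 0.0505 and 0.0888. SLCO2B1, an uptake carrier, had a change of -0.65 ± 0.20 (limma adjusted p = 0.0368) that rested in part on CC clone 3, without which it was -0.39. Its call was lost without GG clone 1, GC clone 2, 3 or 4, or CC clone 1, and with DESeq2, with adjusted p between 0.0538 and 0.0728. The uptake carrier SLC10A1 (NTCP) had 26 reads over the treated libraries and 30 reads over the untreated ones, and was not tested.

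**Figure D3:**
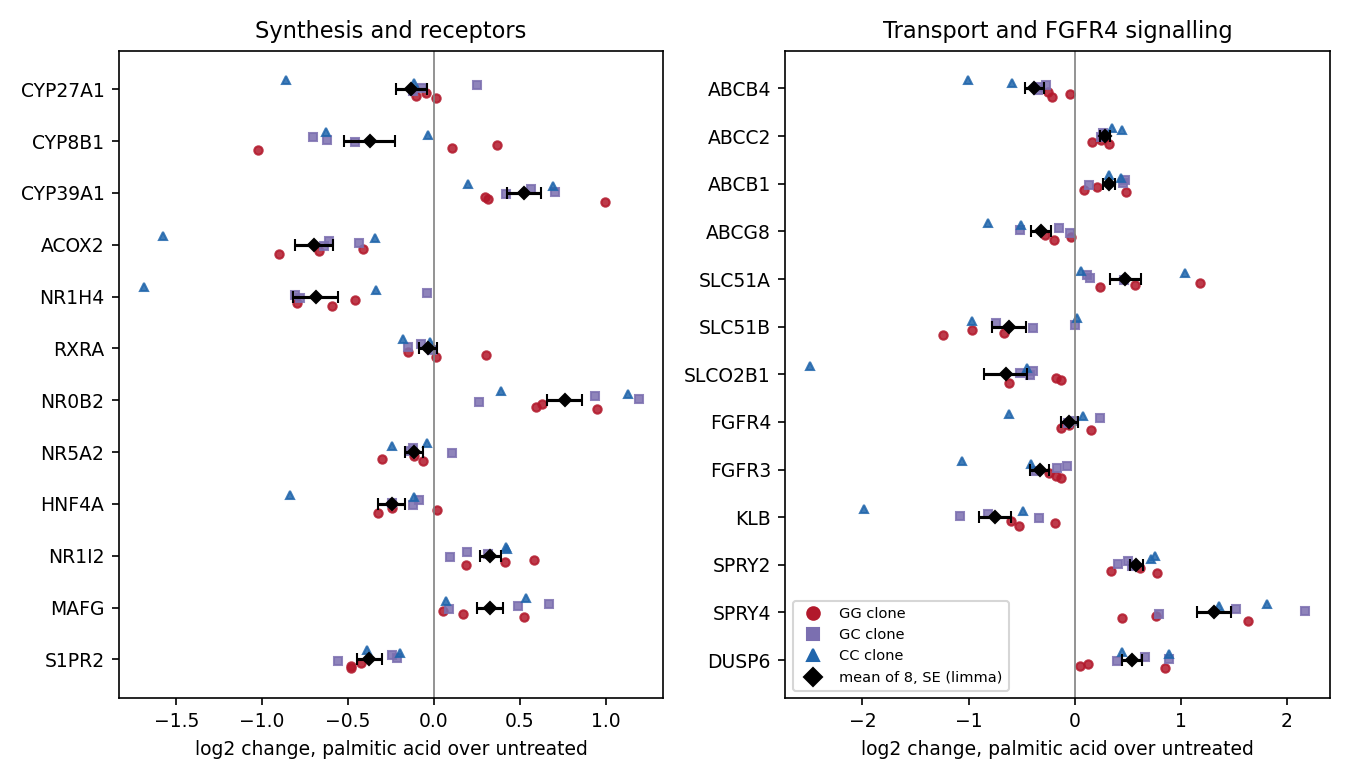
Log2 change with palmitic acid over untreated (horizontal axes) for bile acid axis genes, with 1 point per clone and the mean of 8 clones with its limma SE as a black diamond. CC clone 3 lies farthest to the left for NR1H4 (-1.69), SLCO2B1 (-2.49) and CYP27A1 (-0.86), while NR0B2, ABCC2, ABCB1, SPRY2 and SPRY4 lie right of 0 in all 8 clones.

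FGF19 (ENSG00000162344.3, chromosome 11, 69698232 to 69704642, minus strand) was close to unread. It had 1, 1 and 0 reads in treated GG clones 1, 2 and 6, 2, 0 and 3 reads in treated GC clones 2, 3 and 4, and 2 and 0 reads in treated CC clones 1 and 3. The untreated libraries in the same order had 1, 2 and 0, then 1, 1 and 0, then 3 and 2 reads. No library held more than 3 reads. Together the treated libraries gave 9 FGF19 reads of 98899131 (exact 95% Poisson interval 4.12 to 17.1 reads) and the untreated ones 10 of 107974345 (4.80 to 18.4 reads), intervals that cover counting error only. A difference was not detectable at this depth. A count of 0 allows up to 3 reads, which is 0.190 to 0.325 units depending on the library. Of 13 listed genes near FGF19 on the same chromosome arm, 7 were tested, of which 2 rose (FADD and CTTN) and none fell. The shares over all tested genes were 10.7% up and 10.2% down. Without GG clone 1, or without GC clone 3, CTTN was called and FADD was not. CCND1, the cyclin gene beside FGF19, had a change of 0.07 ± 0.05 (limma adjusted p = 0.309), and CTTN, a cortical actin regulator, 0.38 ± 0.07 (limma adjusted p = 0.00217).

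FGFR4 (ENSG00000160867.14, chromosome 5, 177086886 to 177098144, plus strand), the FGF19 receptor of hepatocytes, had 171 to 458 units with palmitic acid (median 309) and 234 to 388 units untreated (median 303). The groups overlapped almost wholly, and the treated library was the lower in 5 of 8 clones. Its change was -0.05 ± 0.08, with a limma adjusted p = 0.678, and without CC clone 3 it was 0.031. The co-receptor gene KLB had 24.7 to 303 units with palmitic acid (median 175) and 99.7 to 425 units untreated (median 251). The treated library was the lower in 8 of 8 clones, and the change was -0.75 ± 0.15 (limma adjusted p = 0.00461), largest in CC clone 3 and smallest in GG clone 2. Of 28 listed genes of FGF19 and FGFR4 signalling 24 were tested, with a median change of 0.11. Against 10.7% up and 10.2% down over all tested genes, 9 of the 24 rose and 4 fell. Feedback inhibitors of receptor signalling were among those that rose: SPRY4 had a change of 1.31 ± 0.16 (limma adjusted p = 2.16e-04), SPRY2 0.58 ± 0.07 (limma adjusted p = 1.43e-04) and the phosphatase gene DUSP6 0.54 ± 0.09 (limma adjusted p = 0.00203), each higher in 8 of 8 clones. SHC1, DUSP4, SPRED1, ETV4, ETV5 and EGR1 also rose. These genes take part in or respond to signalling from many receptors, not from FGFR4 alone, and ERK activity was not measured. Besides KLB, FGFR3, GAB1 and MAPK3 fell, and FGFR3 had a change of -0.33 ± 0.09 (limma adjusted p = 0.0222), which was -0.19 without both CC clones. Without GG clone 1 or without GC clone 3 2 genes of the list fell.

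Of 26 listed genes that FXR is known to switch on 21 were tested, with a median change of -0.22. Against 10.7% up and 10.2% down over all tested genes, 4 of the 21 rose and 8 fell. The 4 that rose were NR0B2, ABCC2, SLC51A and INSIG2, an inhibitor of cholesterol synthesis, for which the change was 0.38 ± 0.05 (limma adjusted p = 3.11e-04). Those that fell were ABCB4, SLC51B, SULT2A1, PPARA, the kininogen gene KNG1 and the fibrinogen genes FGA, FGB and FGG. KNG1 had 0.325 to 19.2 units with palmitic acid and 4.87 to 158 units untreated, a change of -2.07 ± 0.19 (limma adjusted p = 2.81e-05). Its lowest value, in treated CC clone 3, was 3 reads. FGB had 230 to 1976 units with palmitic acid and 1243 to 4820 units untreated, a change of -1.51 ± 0.14 (limma adjusted p = 3.63e-05). FGG had a change of -1.08 ± 0.15 (limma adjusted p = 4.89e-04). All 3 were lower in 8 of 8 clones, and they are secreted liver proteins that many factors beside FXR control. Of 9 listed genes that FXR or SHP repress, 5 were tested, and none rose and 3 fell (APOA1, APOC3 and LIPC), with a median change of -0.37. APOA1, the main protein of high-density lipoprotein, had a change of -0.40 ± 0.12 (limma adjusted p = 0.0292), which was -0.26 without CC clone 3. None of the 3 was called without GC clone 3, where APOA1 had a limma adjusted p = 0.0695. Of 15 listed genes of inherited cholestasis 14 were tested, of which 3 rose and 3 fell. All of these but JAG1 (SLC51A, ABCC2, ABCB4, NR1H4 and SLC51B) are also counted in lists above. JAG1, the Notch ligand gene of Alagille syndrome, had a change of 0.97 ± 0.16 (limma adjusted p = 0.00163), higher in 8 of 8 clones.

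**Figure D4:**
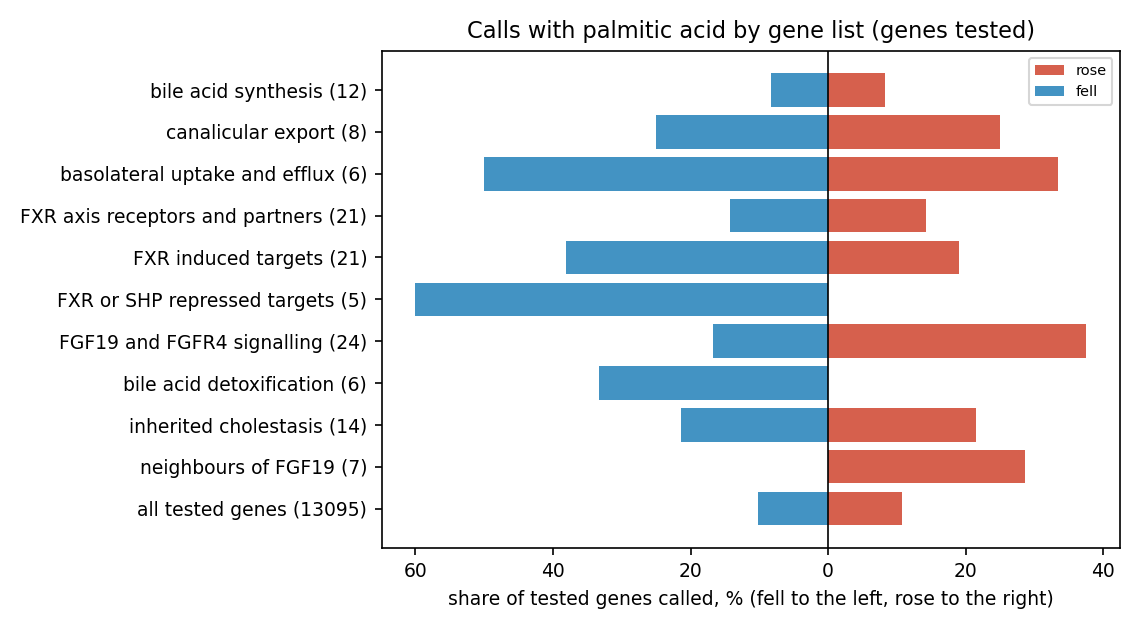
Share of tested genes that rose (right) or fell (left) with palmitic acid at a limma adjusted p of 0.05, in percent, for each list of bile acid genes and for all 13095 tested genes, with the number tested in brackets. The 5 tested genes that FXR or SHP repress hold 3 that fell and none that rose, and FGF19 and FGFR4 signalling is the list with most that rose, 9 of 24; all tested genes had 10.7% and 10.2%.

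Hepatocyte marker genes moved beside these lists. All 10 listed hepatocyte markers were tested, and none rose and 6 fell (ALB, TF, APOA1, FGB, HNF4A and CPS1), with a median change of -0.33. The shares over all tested genes were 10.7% up and 10.2% down. APOA1, FGB and HNF4A are also counted in lists above. The summed level of the 10 markers was 12841 to 26828 units with palmitic acid and 16031 to 32704 units untreated. CPS1, a urea cycle enzyme, had a change of -0.42 ± 0.07 (limma adjusted p = 0.00189). The 6 that fell were 2 without GC clone 3. Of other cell types, 4 of 10 biliary markers were tested and none was called, 4 of 10 enterocyte markers were tested and 2 fell (CDX2 and FABP2), and 4 of 8 stellate markers were tested with 1 up (PDGFRB) and 1 down (ACTA2). Of 8 macrophage markers 3 were tested and CD14 fell, and of 7 endothelial markers 2 were tested and PECAM1 fell. CD14 was low, at 0.446 to 1.74 units with palmitic acid and 1.01 to 4.53 units untreated. With a filter at a mean of 5 units, 0 macrophage markers and 1 enterocyte marker were called downward. PDGFRB was not called without GC clone 3 or without both CC clones, 1 enterocyte marker was called upward without CC clone 3, and 1 endothelial marker was called upward without CC clone 1, CC clone 3 or both, with a pseudocount of 1, with DESeq2 size factors and with a response per genotype. Without both CC clones 1 macrophage marker was called upward. The summed biliary level was 302 to 413 units with palmitic acid and 307 to 442 units untreated, and the summed enterocyte level 54.8 to 271 and 51.2 to 237 units. The part of these markers in the bile acid results was not tested.

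Genotype was compared in 3 ways: the palmitic acid change, the untreated level and the treated level, each by limma's F test over GG, GC and CC. For the palmitic acid change none of the 5 tested members was called, and over all genes 0.00764% were, which is MUC5AC alone. ABCB4 came nearest, with a change of -0.17 ± 0.11 in GG, -0.32 ± 0.04 in GC and -0.80 ± 0.30 in CC (SD, n = 3, 3 and 2). It was the only member with an unadjusted p under 0.05 in limma's F test (0.00988), and the limma adjusted p = 0.998. Over all genes 474 had an unadjusted p under 0.05. With the count tests, edgeR called 0 genes and DESeq2 called 1, which was RNA45S5 and not MUC5AC. NR1H4 changed by -0.62 ± 0.17 in GG, -0.54 ± 0.44 in GC and -1.01 ± 0.96 in CC, and NR0B2 by 0.72 ± 0.20 in GG, 0.80 ± 0.48 in GC and 0.76 ± 0.52 in CC (SD, n = 3, 3 and 2). CYP27A1 changed by -0.05 ± 0.06 in GG, 0.02 ± 0.20 in GC and -0.49 ± 0.53 in CC (SD, n = 3, 3 and 2). Without CC clone 1, which leaves CC clone 3 as the only CC change and assumes that it varies like the other groups, 190 genes were called and CYP27A1 among them, with a limma adjusted p = 0.0414, while the range over the single-clone omissions was 0.0414 to 1.00.

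In untreated cells none of the members was called by genotype (limma adjusted p = 1.00 for each), and 0% of all genes were called. Over all genes 356 had an unadjusted p under 0.05 in limma's F test. With the count tests, edgeR called 0 genes and DESeq2 14. NR1H4 averaged 61.9 ± 28.6 units in the GG clones, 67.0 ± 15.7 units in GC and 66.9 ± 13.4 units in CC (SD, n = 3, 3 and 2). NR0B2 averaged 15.3 ± 3.26 units in the GG clones, 23.2 ± 17.2 units in GC and 16.9 ± 8.00 in CC (SD, n = 3, 3 and 2), where the GC spread came from GC clone 2. With palmitic acid none of the members was called either (limma adjusted p = 0.997 for each; unadjusted p under 0.05 for ABCB4 alone, beside 466 of all genes), beside 0.00764% of all genes, again MUC5AC alone. Treated ABCB4 averaged 22.1 ± 5.30 units in the GG clones, 20.3 ± 1.08 units in GC and 13.4 ± 0.842 in CC (SD, n = 3, 3 and 2), and the log2 difference was 0.68 ± 0.22 for GG over CC and 0.58 ± 0.22 for GC over CC (SE). Among all 8 clones the highest untreated clone had 3.82 times the lowest for NR0B2 and 2.82 times for NR1H4, against 1.29 times for CYP27A1.

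The changes of CYP27A1, NR1H4 and FGFR4 ran together over the 8 clones. Pearson's r was 0.96 for CYP27A1 with FGFR4 (exact permutation p = 0.00255, adjusted p = 0.0342; rho 0.79, exact permutation p = 0.0279, adjusted p = 0.245), and 0.93 for NR1H4 with FGFR4 (exact permutation p = 0.00342, adjusted p = 0.0342; rho 0.76, exact permutation p = 0.0368, adjusted p = 0.245). For CYP27A1 with NR1H4 r was 0.93 (exact permutation p = 0.00734, adjusted p = 0.0489; rho 0.60, exact permutation p = 0.132, adjusted p = 0.294). Without CC clone 3 and GC clone 4, the 2 clones farthest from the median, r was 0.56, 0.50 and 0.09 for these 3 pairs in the same order, so the relations rest on those clones. Leaving out 1 of them alone, r for CYP27A1 with NR1H4 was 0.74 without CC clone 3 and 0.90 without GC clone 4 (unadjusted exact permutation p = 0.0587 in each case). For NR1H4 with FGFR4 r was 0.76 without both CC clones (unadjusted exact permutation p = 0.0597). The other 17 of the 20 relations computed over pairs of members, in untreated levels or in changes, did not pass adjustment.

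The genes whose levels ran most like each member over the 16 libraries were ranked by Pearson's r of log2 values. They were taken among 10395 genes with a mean of at least 5 units. Some forms of symbol, such as LOC, LINC, MIR, antisense, orf and clone names, were left out before the ranking. The genes are given as a description of libraries that share clones. For NR1H4 they were GDPD5 (r = 0.95), SSC4D (0.95) and MPRIP (0.93). For NR0B2 they were DLX1 (0.91), CYSTM1 (0.90) and PLLP (0.89). CYP27A1 ran with PTPN9 (0.96), PRPSAP1 (0.95) and EXOC3L4 (0.93), and FGFR4 with DGAT2 (0.95), TSPAN33 (0.94) and MFSD3 (0.94). For ABCB4 they were the complement gene C3 (0.85), the asialoglycoprotein receptor subunit ASGR2 (0.85) and PROC, which encodes protein C (0.84).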

How the data were processed

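Total RNA was depleted of ribosomal RNA and made into directional libraries, per the labels' protocols. Tools named in the submitters' processing notes are edgeR, Bowtie2, RSEM 1.3.0 and Trimmomatic 0.38, and the build is hg38. The authors deposited a normalized signal per gene for 16 libraries. Every deposited value was a whole multiple of what 1 read is worth in its library (100% of values at a tolerance of 0.01 reads), and TMM per-million values recomputed with edgeR from those reads differed from the deposited signal by a relative 1.33e-15 at most. Libraries held 15662 to 16206 detected genes. Gene positions are those of GENCODE on GRCh38, and promoters are those of RefSeq on GRCh38.p14, in which 3 members matched by symbol.

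After a filter at a mean of 1 unit, 13095 genes were analysed as log2(value + 0.5), a scale that understates changes of low genes. The palmitic acid response was tested with limma 3.58.1 (mean-variance trend) in R 4.3.3 with the clone as a block, and genotype by limma's F test on changes, untreated libraries and treated libraries. The pairing comes from the titles, which name the same clone in both libraries. In a check of it, deviations from group means correlated at 0.523 to 0.857 within a clone, and the own partner was the best match in 8 of 8 clones. Deviations of the 2 CC clones mirror each other, so these clones share 1 value, 0.744, and are not 2 separate matches. Pairs of replicates differed by more than sampling noise, with a chi-square per degree of freedom of at least 25.3. Relations between members were tested by exact permutation over 8 clones, two-sided, with Benjamini-Hochberg adjustment over 20. Count tests on the recovered reads with edgeR 4.0.16 and DESeq2 1.42.0 served as alternatives and called 2696 and 2498 genes for palmitic acid, against 2745 by limma. Other alternatives were the pseudocount, the filter, 2 other scalings, no block, each clone left out and both CC clones left out; a response per genotype within the block was chosen after seeing the data. Figures used Python 3.11.15.

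The members, gene lists and tests were chosen with earlier results of these data known. Besides the 7 members and 10 further genes of the axis (ABCB11, SLC10A1, CYP8B1, KLB, NR5A2, RXRA, HNF4A, SLC51A, SLC51B and CCND1), the text names up to 3 genes each way from each list, those with the smallest p among genes called and moved the same way in 8 of 8 clones. The other called genes of a list are named without values, and NUDC was added because it overlaps NR0B2. The lists cover synthesis, canalicular and basolateral carriers, receptors, FXR induced and repressed targets, FGFR4 signalling, detoxification, inherited cholestasis, genes near FGF19, and markers of 6 cell types. They share genes, so the same call can be counted in several lists and the counts are not separate results.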

Additional observations from a re-analysis of the deposited data

Results flagged for a closer look

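In 11 of the 39 genes examined, the palmitic acid change of 1 clone stood apart from the other 7: its gap to the nearest of them, over the whole range, passed 0.526, the critical value of Dixon's test for 8 values. Chance alone gives such a gap in about 5% of groups. CC clone 3 was the clone apart in 10 of these genes, below the others each time. Among members its log2 change was -0.86 for CYP27A1, -1.69 for NR1H4 and -0.62 for FGFR4. Among the other genes it was -0.84 for HNF4A, -1.58 for ACOX2, -2.49 for SLCO2B1, -2.17 for FGG, -1.39 for APOA1, -1.06 for FGFR3 and -1.05 for CDX2. GG clone 2 stood apart for RXRA, with a change of 0.30. Over all tested genes the SD of the changes was 0.567 in CC clone 3 and 0.311 to 0.404 in the other clones. The treated library of CC clone 3 held 9314342 reads, the fewest of the 16, and 15662 detected genes. The cause was not tested.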

How the results depend on the processing

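The calls of NR0B2, NR1H4 and ABCB4 with palmitic acid held under 18 of 19 alternatives. They were lost only with no replicate block for the paired clones, where 0 members and 3 genes in all were called in place of 3 members and 2745 genes. Leaving out 1 clone gave 1742 (without GC clone 3) to 2557 called genes and 3 members each time. The share of calls that rose was 51.2%, and 44.2% with plain read totals as the scale, and the 2 other scalings moved the median of all genes by 0.01 and -0.02. The FGFR4 change, -0.05, was 0.031 without CC clone 3 and 0.023 without both CC clones, with a range of -0.092 to 0.031 over the single-clone omissions; it was called in none of these. For the change by genotype, 1 gene was called; 0 were called with a pseudocount of 0.1, a filter at 5 units, edgeR or without both CC clones, 6 with no filter, and 0 to 190 without 1 clone, with 0 to 1 members. For untreated genotype 0 genes were called, 14 with DESeq2 and 0 to 1 without 1 clone. For treated genotype 1 gene was called; 0 were with a pseudocount of 0.1, a filter at 5 units, edgeR, without both CC clones or without any 1 clone, 6 with no filter and 17 with DESeq2. The cause of these moves was not tested. The low counts of FGF19, ABCB11 and SLC10A1, at most 7 reads a library, limit what can be said of them, as does the number of 2 CC clones for any genotype comparison.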
